A study of Saccharomyces cerevisiae with 4 samples.

Results

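The genes of arginine synthesis and breakdown in budding yeast were examined in wild-type cells grown in low or standard phosphate. They were chosen by the symbol that the platform annotation gives to each probe. The list held 9 genes, of which 8 had a named probe among the 6388 gene probes of the array: ARG8, CPA1, ARG3, ARG1 and ARG4 of arginine synthesis, the ornithine carrier ORT1, and CAR1 and CAR2 of arginine breakdown. No probe carried the symbol ARG5,6, so no value is given for this gene. Each of the 8 genes had 1 probe, spotted in duplicate on every array.

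All cultures were of the Saccharomyces cerevisiae strain BY4742 (mating type alpha, haploid) and carried the plasmid YCpLac111, which is centromeric and marked with LEU2. Cells grew through a pair of doublings in synthetic complete medium made without phosphate, supplemented either to 10 mM (10000 uM, standard phosphate) or to 75 uM (low phosphate). There were 2 arrays per group, named a and b. RNA of the culture was hybridised together with a common reference, RNA of wild-type BY4742 cells for which the labels name no plasmid. The culture carried Cy3 on the a arrays and Cy5 on the b arrays, so within a group the dye and the array cannot be told apart. A gap given for array a or b is low minus standard phosphate between the separate arrays of that letter, which share a dye orientation. The submitters describe the arrays of a group as independent cultures, whereas by the methods each biological replicate was hybridised again with its dyes swapped. Were 1 culture behind both arrays of a group, the p-values below would measure technical spread only. Every value is a log2 ratio of culture over reference unless another scale is named.

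Arginine is made from glutamate through acetylated intermediates in the mitochondrion, where the ornithine branch ends. Ornithine is then exported to the cytosol, joined to carbamoyl phosphate, and turned into arginine by way of citrulline and argininosuccinate. Yeast breaks arginine down in the cytosol, first to ornithine and urea and then towards proline. The synthesis genes are activated by Gcn4, the regulator of general amino acid control. Arginine itself represses several of them and induces both CAR genes, through Arg80 and Arg81 together with Mcm1.

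The arrays differed in spread. Over all gene probes the ratios had an SD of 0.599 on low phosphate b, whereas the remaining arrays had 0.197 to 0.27, so percentiles within an array are given beside the ratios. All 7 listed stress genes had means above those of standard phosphate when phosphate was low, though HSP12 and DDR2 overlapped between groups. HSP12 read 2.11 and 2.51 on standard phosphate a and b, 0.95 on low phosphate a and 4.16 on low phosphate b. The median ratio of the 7 genes was -0.19 and 0.39 on standard phosphate a and b, 0.95 on low phosphate a and 2.86 on low phosphate b. The 4 alpha mating genes gave culture signals of 35.2 to 391 times the local background, and the 6 a mating genes 1.17 to 3.27 times. Of 4 alpha mating genes, 3 were lower in low phosphate at unadjusted p under 0.05 (limma, 0 passed), against 5.13% of all probes. The median difference of this list was -0.63. LEU2, the plasmid marker, read 2.61 and 1.48 on standard phosphate a and b and 0.57 and 1.09 on low phosphate a and b, a difference of -1.21 (SE 0.45; limma, adjusted p = 0.42), the 35th lowest of all probes. Its reference signal was only 1.09 to 1.44 times the local background, and its culture signal 2.05 to 7.27 times. The size of its ratios is therefore uncertain. By these ratios it lay above the reference on every array and was lower in low phosphate without overlap. The part of the plasmid in the arginine gene values was not tested. For the arginine genes, the culture signal was 4.9 to 60.0 times the background and the reference signal 3.57 to 64.3 times. No spot pair of these genes differed by more than 0.112 on the log2 scale.

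The question asked here is how the arginine genes compare between low and standard phosphate. In low phosphate ARG1, CPA1 and ARG3 had the lowest means relative to standard phosphate, each at least 2.17-fold below it, and ARG8 followed. ORT1 and ARG4 were lower by a smaller margin. CAR2 was higher, and CAR1 had almost the same mean in both groups. No gene of the list passed an adjusted p of 0.05 in the linear model over all probes (limma, 0 of 8), where 1 of the 6388 probes, or 0.0157%, did. At an unadjusted p under 0.05, 4 of the 8 genes were lower, namely ARG1, ARG3, ARG8 and CPA1, against 5.13% of all probes, and 0 were higher, against 6.34%. Both low phosphate arrays lay below both standard phosphate arrays for 6 of the 8 genes, all of them synthesis or export genes, against 26.8% of all probes. The opposite held for CAR2 alone, against 26.5%. For ARG1, ARG3, ARG8 and CPA1, 4 of the 8 genes, both standard phosphate arrays lay above the reference and both low phosphate arrays below it, against 8.48% of all probes. ARG8 left this set with the deposited log2 ratios, where it was at -0.020 on standard phosphate b, and with 3 other settings. The median difference over the 6 synthesis and export genes was -0.95, and over all probes it was 0.0001.

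**Figure D1:**
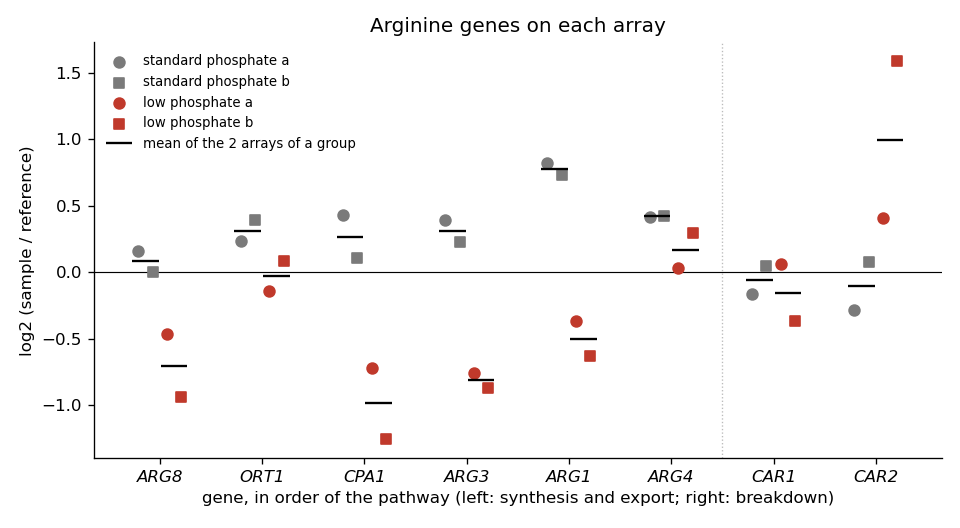
Log2 ratio of culture over reference (y axis) for the 8 arginine genes in pathway order (x axis). Grey marks are standard phosphate, red marks low phosphate, circles array a, squares array b, and bars the mean of the 2 arrays of a group. The red marks lie under the grey marks for the 6 genes left of the dotted line, by 1.28 for ARG1 and 0.26 for ARG4 in the means, and above them for CAR2.

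ARG8 encodes acetylornithine aminotransferase, which acts in the mitochondrion near the end of the ornithine branch. Its ratio was 0.16 and 0.0040 on standard phosphate a and b, and -0.46 and -0.94 on low phosphate a and b. Standard phosphate was thus close to the reference and both low phosphate arrays were below it, at percentiles 1.16 and 4.49 of all probes on their arrays. The difference was -0.78 (SE 0.20, 95% interval -1.32 to -0.24), a 1.72-fold lower mean, and did not pass (limma, adjusted p = 0.42, unadjusted p = 0.0162). Array b gave the wider gap, -0.94 against -0.62 on array a.

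ORT1, also known as ARG11, encodes the carrier that exports ornithine from the mitochondrion. It was at 0.23 and 0.39 on the standard phosphate arrays and at -0.14 and 0.081 on the low phosphate arrays. All 4 ratios were within 0.4 of the reference, and the groups did not overlap. Its difference of -0.35 (SE 0.13, 95% interval -0.70 to 0.014) was nearly alike on array a (-0.38) and array b (-0.31), and did not pass (limma, adjusted p = 0.42, unadjusted p = 0.056).

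CPA1 encodes the small subunit of the carbamoyl phosphate synthetase that serves arginine synthesis. With standard phosphate its ratio was 0.43 and 0.11, and with low phosphate -0.72 and -1.25. On the low phosphate arrays it lay at percentiles 0.517 and 1.72 of all probes, whereas in standard phosphate it lay at 94.5 and 76.5. The mean was 2.38-fold lower in low phosphate (difference -1.25, SE 0.24, 95% interval -1.91 to -0.59; limma, adjusted p = 0.42, unadjusted p = 0.00628), which placed CPA1 as the 28th lowest of the 6388 differences. The replicates differed more for CPA1 than for ARG1 or ARG3, with an SD of 0.23 in standard and 0.38 in low phosphate.

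The leader of the CPA1 messenger RNA contains a short open reading frame whose product, the arginine attenuator peptide, stalls ribosomes when arginine is plentiful. This frame is annotated as YOR302W, which the RefSeq gene table of assembly R64 places directly before CPA1 without overlap. The array holds a separate probe for it, which was not on the list and was picked out after its values were seen. That probe read 0.40 and -0.060 on the standard phosphate arrays and -0.90 and -1.24 on the low phosphate arrays. Its difference of -1.24 (SE 0.22; limma, adjusted p = 0.42, unadjusted p = 0.0049) lay within 1 SE of that of CPA1. Both probes may report the same transcript, so they do not count as separate genes.

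ARG3 encodes ornithine carbamoyltransferase, which joins ornithine and carbamoyl phosphate into citrulline. The standard phosphate arrays read 0.39 and 0.23, the low phosphate arrays -0.75 and -0.87. These were the closest replicates of any low phosphate pair in the list, with an SD of 0.078. The groups did not overlap, and on low phosphate a only 0.454% of all probes had an equal or lower ratio. ARG3 was 2.17-fold lower in low phosphate (difference -1.12, SE 0.11, 95% interval -1.43 to -0.82), with the lowest unadjusted p of the list (limma, unadjusted p = 0.000535, adjusted p = 0.219).

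ARG1 encodes argininosuccinate synthetase, the next enzyme of the pathway. It had the highest standard phosphate ratios of the list, 0.82 and 0.73, and read -0.37 and -0.63 in low phosphate. In standard phosphate it stood at percentiles 98.4 and 99.4 of all probes, and in low phosphate at 2.79 and 8.99. The mean was 2.42-fold lower (difference -1.28, SE 0.13, 95% interval -1.64 to -0.92), the 24th lowest of all differences, and did not pass (limma, adjusted p = 0.219, unadjusted p = 0.000618). Array a gave a gap of -1.19 and array b one of -1.36. On the linear scale of the scanner, ARG1 culture signals were 2998 and 1672 with standard phosphate and 960 and 864 with low, while its reference signals were 3667, 503, 1047 and 1023 on the same arrays.

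ARG4 encodes argininosuccinate lyase, which releases arginine in the last step. The ratio was 0.42 and 0.43 in standard phosphate, the closest replicate pair in the list, and 0.030 and 0.30 in low phosphate. ARG4 therefore stayed above the reference on all 4 arrays, unlike ARG1 one step before it. The difference was -0.26 (SE 0.13, 95% interval -0.61 to 0.096; limma, adjusted p = 0.424, unadjusted p = 0.113), and ranged from -0.39 on array a to -0.13 on array b.

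CAR1 encodes arginase, which splits arginine into ornithine and urea. On the standard phosphate arrays it read -0.16 and 0.048, and on the low phosphate arrays 0.063 and -0.37. The groups overlapped, and the sign of the gap differed between array a (0.22) and array b (-0.42). The difference was -0.097 (SE 0.19; limma, adjusted p = 0.825), and its 95% interval of -0.62 to 0.43 leaves room for a lower or a higher level.

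CAR2 encodes ornithine aminotransferase, which acts on the ornithine that arginase releases. It read -0.28 and 0.075 on standard phosphate a and b, and 0.41 and 1.58 on low phosphate a and b. It was the only member above standard phosphate on both low phosphate arrays, at percentiles 94.9 and 98.2 of all probes, and its replicates were the farthest apart of the list, with an SD of 0.83. The mean was 2.14-fold higher (difference 1.10, SE 0.44, 95% interval -0.14 to 2.34) and did not pass (limma, adjusted p = 0.421, unadjusted p = 0.0693). The difference was 0.51 without low phosphate b and 1.69 without low phosphate a. The listed stress genes were likewise highest on low phosphate b, and their part in the CAR2 value was not tested.

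**Figure D2:**
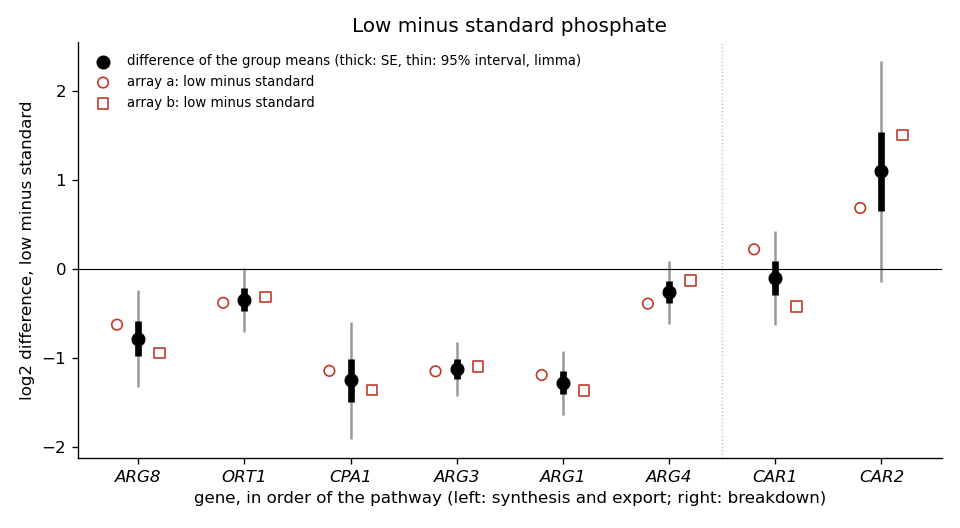
Difference between low and standard phosphate (y axis, log2) for the 8 genes in pathway order (x axis). Black dots are differences of the group means with SE (thick) and 95% interval (thin) from limma. Open red marks are low minus standard phosphate between the a arrays and between the b arrays. The intervals of ARG8, CPA1, ARG3 and ARG1 lie below 0, and the red marks of CAR1 lie on both sides of 0.

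Ordered by their difference, the genes ran from ARG1, CPA1 and ARG3 through ARG8, ORT1, ARG4 and CAR1 to CAR2. Neighbours from ARG1 to CPA1, from CPA1 to ARG3, from ORT1 to ARG4 and from ARG4 to CAR1 were closer than 1 combined SE. The steps from ARG3 to ARG8 and from ARG8 to ORT1 were 0.34 and 0.44, or 1.51 and 1.87 combined SE. The widest step, from CAR1 to CAR2, was 1.20, or 2.47 combined SE. The combined SE treats the genes of a step as independent, although all were measured on the same arrays. These steps were not tested.

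**Figure D3:**
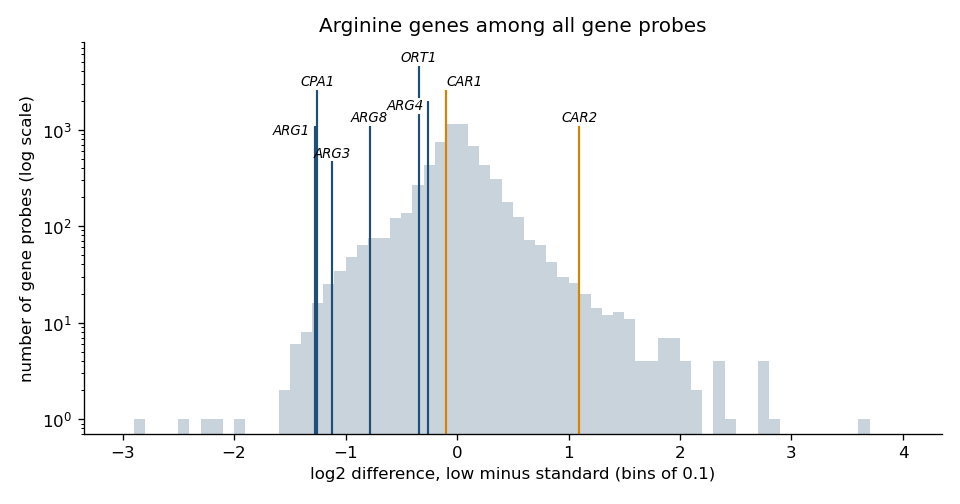
Number of gene probes (y axis, log scale) by the log2 difference between low and standard phosphate (x axis, bins of 0.1), over all 6388 probes. Vertical lines mark the synthesis and export genes (blue) and CAR1 and CAR2 (orange). ARG1, CPA1 and ARG3 stand in the lower tail as the 24th, 28th and 56th lowest differences, ARG8 is the 220th, and CAR1 lies near the centre.

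Against the reference, standard phosphate was higher for all 6 synthesis and export genes by group mean, from 0.082 for ARG8 to 0.78 for ARG1. With loess fitted on the spike-in spots the median of all probes itself lay at 0.15 in standard and 0.17 in low phosphate, and the ARG8 mean in standard phosphate was 0.30. With the main processing no arginine gene passed an adjusted p of 0.05 in standard phosphate (limma, 0 of 8, against 0.0783% of all probes). At an unadjusted p under 0.05, 4 of 8 were higher (ARG1, ARG3, ARG4 and ORT1, against 6.84% of all probes), and 0 were lower, against 4.3%. The ARG1 mean of 0.78 ± 0.063 (SD) was 1.72-fold above the reference (limma, adjusted p = 0.29), and that of ARG4 was 0.42 ± 0.0060 (limma, adjusted p = 0.353). Both CAR genes were within 0.3 of the reference on each standard phosphate array. All 4 arrays shared 1 reference RNA, whose own variation these tests leave out.

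Relative to the reference in low phosphate, ARG1, ARG3, ARG8 and CPA1 were lower on both arrays, ARG4 and CAR2 were higher on both, and ORT1 and CAR1 lay on either side. The lowest mean was -0.98 ± 0.38 (SD) for CPA1, 1.98-fold below the reference, followed by ARG3 at -0.81 ± 0.078, ARG8 at -0.70 ± 0.33 and ARG1 at -0.50 ± 0.19. CAR2 was at 0.995 ± 0.83, 1.99-fold above it. No gene passed (limma, 0 of 8, against 0.297% of all probes; the lowest adjusted p was 0.0982, for ARG3). At an unadjusted p under 0.05, these 4 synthesis genes were lower, against 11.4% of all probes, and CAR2 was higher, against 15.1%. With scale normalization between arrays ARG3, ARG8 and CPA1 passed in low phosphate, a setting in which 7.2% of all probes did.

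The synthesis and export genes were next set against the breakdown genes on each array. The mean of the 6 measured synthesis and export genes was 0.41 and 0.32 on standard phosphate a and b, and -0.40 and -0.55 on low phosphate a and b. The mean of CAR1 and CAR2 was -0.22, 0.061, 0.23 and 0.61 on the same arrays. Synthesis thus exceeded breakdown on both standard phosphate arrays, by 0.63 and 0.25, and lay under it on both low phosphate arrays, by -0.64 and -1.16. The gap went from 0.44 ± 0.27 to -0.90 ± 0.37 (SD, n = 2), a difference of -1.34. It was -1.27 between the a arrays and -1.41 between the b arrays. As a score over chosen genes it is given without a test. CAR1 and CAR2 had unlike differences (-0.097 and 1.10), so the breakdown mean stands mainly for CAR2.

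**Figure D4:**
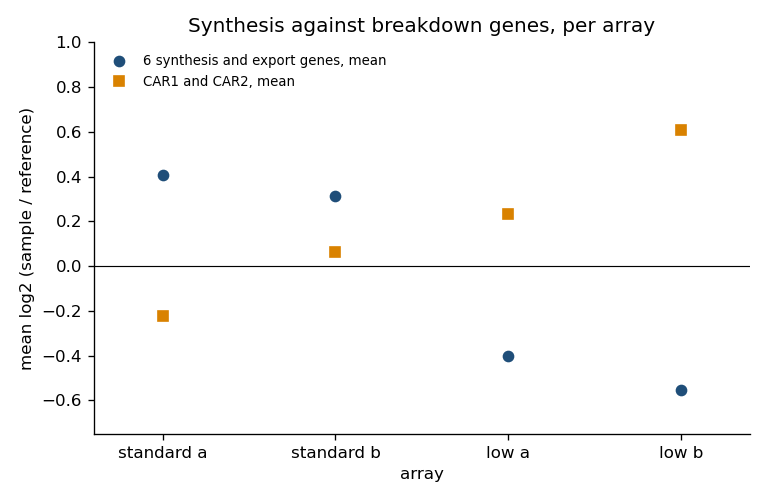
Mean log2 ratio of culture over reference (y axis) of the 6 synthesis and export genes (blue circles) and of CAR1 and CAR2 (orange squares) on each of the 4 arrays (x axis). The blue marks are above the orange ones in standard phosphate and below them in low phosphate, by 1.16 on low phosphate b.

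Between low and standard phosphate, arginine gene calls at an adjusted p of 0.05 changed only when a low phosphate array was left out. Without low phosphate a, 5 genes passed (ARG1, ARG3, ARG8, CPA1 and CAR2), in a fit where 31.8% of all probes did, and without low phosphate b, 3 passed (ARG1, ARG3 and CPA1), where 1.5% did. Against the reference, leaving out either low phosphate array made ARG1, ARG3, ARG4 and ORT1 pass in standard phosphate (8.92% of all probes), although the standard phosphate arrays were then unaltered. In low phosphate 7 genes passed without array a (ORT1 was the exception; 39.2% of all probes) and 2, ARG3 and CPA1, without array b (3.19%). In these fits the spread comes from the standard phosphate arrays only, and the lone low phosphate array is assumed to vary like them. ARG1, ARG3 and CPA1 had an unadjusted p under 0.05 (limma) in each alternative setting that kept every array. In all 14 alternative settings they were lower without overlap, where 11.8% to 42.5% of all probes were. Their differences were -1.41 to -1.14, -1.31 to -1.04 and -1.52 to -0.98. Leaving out an array or refitting the same ratios could not create an overlap. Scaling could not either, since these genes lay on opposite sides of the reference. The lack of overlap in those settings is therefore no separate check. ARG8 lost its unadjusted p under 0.05 without standard phosphate a (limma, unadjusted p = 0.102) and without standard phosphate b (0.067), and without low phosphate b ORT1 and ARG4 gained one, making 6 genes lower against 6.57% of all probes.

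Related genes were taken from lists. Of the other synthesis genes, ARG7, the mitochondrial ornithine acetyltransferase, read 0.44 and 0.41 in standard and -0.13 and 0.042 in low phosphate (difference -0.47, SE 0.10; limma, adjusted p = 0.42). ARG2, acetylglutamate synthase, differed by -0.23 (SE 0.093). Across both measured genes of this list 0 passed an adjusted p. At an unadjusted p under 0.05 (limma) 1 was lower, against 5.13% of all probes.

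Among 6 regulators 0 passed, and 1, GCN4, was lower at an unadjusted p under 0.05 (limma), against 5.13% of all probes. Its difference was -0.39 (SE 0.13, limma, adjusted p = 0.42, unadjusted p = 0.0394). GCN4 read -0.062 and 0.14 in standard and -0.26 and -0.44 in low phosphate. Its protein is controlled chiefly by translation, which these arrays do not measure. ARG81, the arginine sensor, was at -0.29 (SE 0.15). ARG80, at -0.033 (SE 0.14), and UME6, a repressor of CAR1, at -0.18 (SE 0.15), overlapped between groups. So did MCM1, at -0.25 (SE 0.19), and ARG82, at 0.074 (SE 0.14). GCN4 and ARG81, 2 of the 6 regulators, were lower without overlap, against 26.8% of all probes. The list median was -0.21.

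Of 5 transport genes 0 passed and 2 were lower at an unadjusted p under 0.05 (limma), against 5.13% of all probes. They were CAN1, the arginine permease of the plasma membrane (difference -0.35, SE 0.096), and VBA2, a vacuolar permease for basic amino acids (-0.33, SE 0.091). CAN1 read 0.24 and 0.16 in standard and -0.20 and -0.10 in low phosphate. GAP1, the general amino acid permease, read 1.82 on low phosphate b and 0.30 on low phosphate a, against 0.011 and 0.42 in standard phosphate, and overlapped between groups.

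Genes of the proline and urea steps next to arginine breakdown had differences of either sign, with 0 of 7 measured genes passing and a median of -0.020. At an unadjusted p under 0.05 (limma) 1 was lower, against 5.13% of all probes, and 1 was higher, against 6.34%. Without overlap between groups 1 was lower, against 26.8% of all probes, and 2 were higher, against 26.5%. PUT1, proline oxidase, was higher at 0.62 and 1.03 in low phosphate against 0.064 and 0.10 in standard phosphate (difference 0.74, SE 0.17; limma, adjusted p = 0.42, unadjusted p = 0.0119). PRO1, glutamate kinase of proline synthesis, was lower, at -0.37 and -0.79 in low phosphate against 0.12 and -0.016 (difference -0.63, SE 0.18; limma, adjusted p = 0.42, unadjusted p = 0.0241). PRO3, which makes proline, differed by 0.14 (SE 0.10), and PUT2 by 0.11 (SE 0.23). DUR1,2, urea amidolyase, had no named probe. Of the enzymes that draw on ornithine or carbamoyl phosphate elsewhere, SPE1, ornithine decarboxylase, differed by -0.15 (SE 0.085) and URA2, of pyrimidine synthesis, by -0.59 (SE 0.33), with -0.21 on low phosphate a and -1.10 on low phosphate b.

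Other amino acid genes under Gcn4 had smaller median differences. For 6 histidine genes the median was -0.14, 4 were lower and 0 passed. At an unadjusted p under 0.05 (limma) 1, HIS7, was lower (difference -0.43, SE 0.14), against 5.13% of all probes. The widest difference of this list was that of HIS6, at -0.52 (SE 0.23). Without overlap between groups 3 of the 6 histidine genes were lower, against 26.8% of all probes, and 1 was higher, against 26.5%. For 4 tryptophan genes the median was -0.075, 3 were lower and 0 had an unadjusted p under 0.05 (limma). HIS4 read 0.53, 0.20, 0.011 and 0.69 on standard phosphate a and b and low phosphate a and b, and so did not follow the order of the groups. No test of the difference between these lists and the arginine genes was made.

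By Euclidean distance over the 4 arrays, the probes closest to the mean profile of the synthesis and export genes were DRE2, ISU2, ATR1, RAS1 and HMT1, at distances of 0.223 to 0.279. DRE2 read 0.21 and 0.28 in standard and -0.39 and -0.65 in low phosphate. The closest to the mean of CAR1 and CAR2 were the unnamed probe SCAB003105, PBN1, YPC1, SRV2 and OCH1, at 0.0704 to 0.108. Since CAR1 and CAR2 differed from each other, the latter profile is that of neither gene.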

How the data were processed

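The authors scanned the arrays with an Agilent scanner and extracted spots with Imagene. The deposited scanner files hold, per spot and channel, the mean intensity and median local background, without normalization. The authors also deposited log2 ratios per spot, made by print-tip loess (span 0.4) without background subtraction and corrected for gene-specific dye bias, which were used as an alternative. A deposited table of mean log2 values and p-values per condition (limma 2.12.0 per the labels) was not used.

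Intensities were corrected with normexp (offset 50), normalized by loess on the 12776 gene spots, turned to culture over reference, and averaged over both spots of a probe (R 4.3.3, limma 3.58.1). All 4 arrays entered 1 limma fit of group means (lmFit, then eBayes, two-sided tests), with Benjamini-Hochberg adjustment over 6388 probes and a threshold of 0.05. The fit had 2 residual degrees of freedom and a prior of 1.98. The fit was also run on simulated data, in which all arrays of a probe had the same spread, unlike low phosphate b here. Checked there was only whether mean estimates came close to known differences. The platform annotation gave 5326 probes a symbol and 1062 none. Members, lists and alternatives were chosen with earlier results of these data known. All 8 measured members, whole lists of related genes and the nearest probes by distance are named. The number of arrays limits the precision.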

Additional observations from a re-analysis of the deposited data

Results flagged for a closer look

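For 4 arginine genes both standard phosphate arrays lay above the reference and both low phosphate arrays below it, a pattern found for 8.48% of all probes. They are ARG1 (difference between low and standard phosphate -1.28), CPA1 (-1.25), ARG3 (-1.12) and ARG8 (-0.78). The difference itself did not pass an adjusted p of 0.05 for any of them (limma, adjusted p = 0.219 to 0.42). ARG8 was 0.0040 above the reference on standard phosphate b, and below it, at -0.020, in the deposited log2 ratios. It also left the set with normexp offset 0, print-tip loess and the authors' stated steps, which leaves 3 genes, while ORT1 joined it without low phosphate b (5 genes, against 11.1% of all probes).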

How the results depend on the processing

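In comparing low with standard phosphate, 0 members passed (limma) unless a low phosphate array was left out (0 to 5 over the arrays). Over all probes 1 passed, and 0 with the replicate block, the authors' stated steps, the deposited log2 ratios, print-tip loess, spike-in loess, median centring or normexp offset 0, 3 with scale between arrays, and 0 to 2030 with an array left out. At an unadjusted p under 0.05, 4 members were lower, but 5 with the deposited log2 ratios (4.88% of all probes) and the replicate block (6.81%), which added ORT1, 6 with scale between arrays (9.97%), and 3 to 6 with an array left out (3 without standard phosphate a, 0.751%, or b, 0.924%, ARG8 being lost, and 6 without low phosphate b, 6.57%). CAR2 alone (1 member) was higher with median centring (2.88%), scale between arrays (10.6%), the replicate block (8.58%), without low phosphate a (20.8%) and without low phosphate b (7.45%), which gives 0 to 1 over the arrays. With spike-in loess (loess fitted on spike-in spots, 16.1% of all probes lower without overlap) and with median centring (11.8%), ARG4 and ORT1 overlapped between groups, leaving 4 genes lower, and without an array 1 to 2 genes were higher without overlap (2 without low phosphate b, against 35.2% of all probes). CAR1 was at 0.0067 without standard phosphate b and 0.12 without low phosphate b (-0.31 without low phosphate a). ARG4 was at -0.12 without low phosphate a and -0.43 with scale between arrays.

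Against the reference, 0 members passed in standard phosphate (0 to 4 with an array left out) and 0 in low phosphate (3 with scale between arrays, 0 to 7 with an array left out). Over all probes 5 passed in standard phosphate: 9 with normexp offset 0 and the authors' stated steps, 8 with print-tip loess and scale between arrays, 0 with spike-in loess, median centring and the replicate block, and 0 to 570 without an array. In low phosphate 19 passed: 460 with scale between arrays, 3 with trend and robust, 0 with the replicate block and 0 to 2504 without an array. With spike-in loess the median of all probes was at 0.15 in standard and 0.17 in low phosphate. ARG8 (0.30), CPA1 (0.45), ARG3 (0.53) and ORT1 (0.54) then had standard phosphate means over 1.5 times their value, ARG1 was at -0.28 and ARG4 at 0.37 in low phosphate, CAR1 was at 0.16 in standard and 0.063 in low phosphate, CAR2 at 0.11 in standard and ORT1 at 0.20 in low phosphate. CAR1 in standard phosphate was at 0.0075 with the deposited log2 ratios and lay between -0.16 and 0.048 with an array left out, CAR2 there between -0.28 and 0.075, and in low phosphate CAR1 lay between -0.37 and 0.063 and ORT1 between -0.14 and 0.081. ORT1 was at 0.049 there with median centring.

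The gap of synthesis over breakdown genes moved by -1.47 to -1.21 over the other settings and by -1.60 to -1.08 with an array left out. The replicate letter is the dye orientation, and the a minus b deviations of both groups correlated with r = 0.277 over probes. The causes of these changes were not tested.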
